A study of Mus musculus with 53 samples.

Results

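Hox genes encode homeodomain transcription factors that stand side by side in 4 clusters in the mouse genome. They were taken here as every protein-coding gene of the GENCODE M21 annotation whose symbol is Hoxa, Hoxb, Hoxc or Hoxd followed by a paralog number. The rule gave 39 genes. Of these, 38 had a row among the 37991 gene IDs of the authors' table, 20214 of which were annotated as protein-coding, and Hoxd4 was not analysed here.

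The study sequenced RNA of cultured neurons and astrocytes and of embryonic and adult mouse brain in order to relate histone turnover to neuronal activity. Its labels give 53 samples in 19 groups. The values used here come from 1 group, cortical tissue of C57bl/6 mouse embryos at stage E16.5, labelled as a control with no stimulation. The labels give it 3 libraries of total RNA, and the authors deposited their mean as RPKM, reads per kilobase of gene and M library reads (M, 1000000), so its values carry no SD. Whole reads per library could be recovered for genes with few reads, and with 1 group there is no test between groups.

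Each Hox cluster runs in the order of its paralog numbers. Genes with low numbers are switched on first and furthest forward in the embryo, and genes with high numbers later and closer to the tail. In the nervous system Hox genes are known for giving hindbrain segments and spinal cord levels their identity, and the front limit of their expression lies in the hindbrain, behind the forebrain from which the cortex grows. Where they are not in use, their CpG-rich clusters are a textbook target of Polycomb repression.

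The clusters also carry microRNA genes of the miR-10 and miR-196 families. Their mature sequences from the RefSeq table (GRCm38.p6) are printed because they show which cluster genes are copies of one another. Capitals mark the seed, bases 2 to 8. The miR-10a and miR-10b genes lie in the Hoxb and Hoxd clusters, with the printed forms on the plus strand at chr11:96317186-96317208 and chr2:74726074-74726096. The miR-196b gene lies in the Hoxa cluster, with the printed form on the minus strand at chr6:52230129-52230150. The 2 miR-196a genes lie in the Hoxb and Hoxc clusters, with the printed form on the plus strand at chr11:96265187-96265208 and chr15:102973365-102973386.
mmu-miR-10a-5p: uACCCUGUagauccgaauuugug
mmu-miR-10b-5p: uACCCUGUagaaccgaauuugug
mmu-miR-196a-5p: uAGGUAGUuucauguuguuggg
mmu-miR-196b-5p: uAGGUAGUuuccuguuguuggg

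The miR-10 pair shared the seed ACCCUGU, and the miR-196 genes shared AGGUAGU. These 5 genes and Mir615 of the Hoxc cluster were all listed at 0. Of the 1110 miRNA genes of the table, 31.0% were above 0. A mature microRNA is shorter than the inserts that an ordinary RNA-seq library holds, so these values describe longer transcripts of the loci and not the mature forms.

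Promoter sequence was read from the same RefSeq table, which held 24 promoters of 22 Hox genes. A CpG is a C followed by a G, which reads the same on both strands. The 250 bases before the start are shown for the promoters with most CpG, Hoxa13 and Hoxa5, and for one of those with fewest, Hoxa9, out of 12 windows that held no annotated exon and whose start was also an annotated one. Capitals mark each CpG, and all 3 windows are on the minus strand of GRCm38.p6. The window of Hoxa13 is chr6:52260881-52261130, that of Hoxa5 is chr6:52204588-52204837 and that of Hoxa9 is chr6:52227371-52227620.
Hoxa13: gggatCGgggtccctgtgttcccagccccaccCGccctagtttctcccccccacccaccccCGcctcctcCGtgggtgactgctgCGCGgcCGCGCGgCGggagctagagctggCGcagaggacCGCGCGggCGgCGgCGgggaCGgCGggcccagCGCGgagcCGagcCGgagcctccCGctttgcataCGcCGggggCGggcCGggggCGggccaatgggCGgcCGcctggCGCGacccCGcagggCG
Hoxa5: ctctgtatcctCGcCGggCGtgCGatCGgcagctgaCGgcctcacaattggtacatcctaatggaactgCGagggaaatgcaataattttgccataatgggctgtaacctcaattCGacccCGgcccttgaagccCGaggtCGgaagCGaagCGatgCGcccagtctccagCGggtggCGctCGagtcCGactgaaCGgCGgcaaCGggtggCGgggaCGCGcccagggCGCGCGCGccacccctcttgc
Hoxa9: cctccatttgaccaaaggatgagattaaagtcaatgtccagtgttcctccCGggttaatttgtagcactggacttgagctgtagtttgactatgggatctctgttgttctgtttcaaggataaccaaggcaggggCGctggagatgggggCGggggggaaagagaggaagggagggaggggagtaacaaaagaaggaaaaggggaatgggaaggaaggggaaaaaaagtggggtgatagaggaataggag

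The Hoxa13 window held 35 CpG and 80.0% G and C, that of Hoxa5 28 CpG and 63.6%, and that of Hoxa9 3 CpG and 49.6%. All 3 genes were listed at 0 in the cortex.

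Next to no Hox RNA was read in the embryonic cortex. Of the 38 listed Hox genes, 3 were above 0 (7.89%), against 84.8% of all protein-coding genes. Fewer cells with Hox RNA and less Hox RNA per cell cannot be told apart in bulk tissue. The median over all 38 Hox genes was 0 RPKM, against 0.214 RPKM over all protein-coding genes. The kilobases behind RPKM were those of the full gene span with its introns, as the authors' values show. No Hox gene reached 1 RPKM, against 31.6% of protein-coding genes, none reached 0.1 RPKM, against 55.9%, and none reached 0.01 RPKM, against 70.2%. With exon length in place of span, no Hox gene reached 1 RPKM, against 54.1% of protein-coding genes. Within the gene lists below, the order of genes by RPKM can differ from their order per kilobase of exon.

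The depth behind these values was large. The low values of the table are whole reads divided by gene length and library total, which gave totals of 71.6, 64.8 and 51.3 M reads for the 3 libraries and 187.7 M in all. Which labelled library has which total is not given. A gene listed at 0 had no read assigned to it, whether none was sequenced or none could be placed. A count of 0 allows up to 3 reads, which is 0.0160 reads per M library reads (RPM) over the 3 libraries. On the RPKM scale this limit ran from 0.000320 for Hoxc5, the longest, to 0.00863 for Hoxc12, the shortest. Limits and intervals of reads cover counting error only.

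Hoxb13, which is known for its roles in the tail and the prostate, had the highest value, 0.00505 RPKM. It came from 3 reads, 2 in the library of 71.6 M, 0 in that of 64.8 M and 1 in that of 51.3 M. Hoxd13, which patterns digits and the genital tubercle, had 0.00156 RPKM from 1 read, in the library of 64.8 M. Hoxc4, which acts at the level of the neck, had 0.000363 RPKM from 1 read, in the library of 51.3 M. No library had a read of all 3 genes, and no gene had a read in all 3 libraries.

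Together the Hox genes had 5 reads of 187.7 M, with an exact Poisson 95% interval of 1.62 to 11.7, or 0.0266 RPM. The libraries of 71.6, 64.8 and 51.3 M reads held 2, 1 and 2 of them, which is 0.0274 ± 0.0118 RPM (SD, n = 3 libraries). Without the library of 71.6 M or that of 51.3 M, 3 reads were left. Of all protein-coding genes, 1395 (6.90%) had 1 to 5 reads each, so that the whole Hox family had as many reads as a single gene at the top of that range. The median protein-coding gene had an estimated 1276 reads. The highest Hox value was at or above 26.3% of the values of protein-coding genes (5307 genes, 3074 of them at 0).

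**Figure D1:**
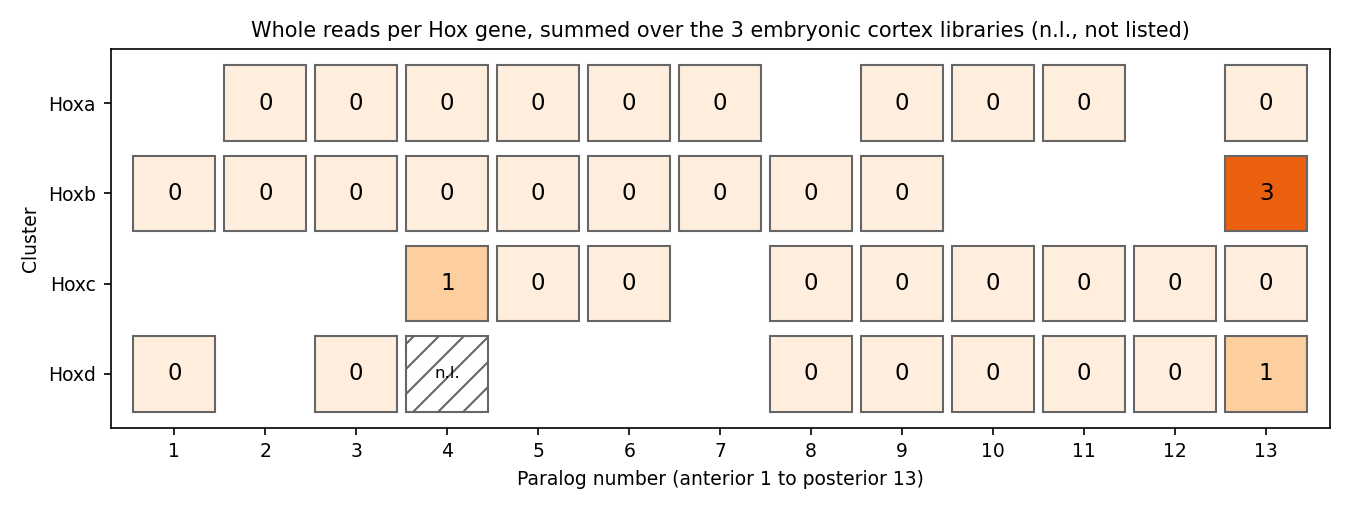
Whole reads per Hox gene over the 3 embryonic cortex libraries, by cluster (rows) and paralog number (columns). Empty places hold no gene or a gene not shown, the hatched place is Hoxd4, and reads stand at Hoxb13 with 3, Hoxc4 with 1 and Hoxd13 with 1.

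By paralog number, the anterior genes had no read. Among them are Hoxb1, which sets up a hindbrain segment, and Hoxd1, Hoxa2 and Hoxb2, of which the last pair act in the hindbrain and, for Hoxa2, the second pharyngeal arch, and Hoxa3, Hoxb3 and Hoxd3. Each of those named was listed at 0. The exons of the anterior genes covered 26.2 kb.

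The central genes, with paralog numbers 4 to 8, had 1 read over 14 listed genes, that of Hoxc4. Hoxa4 and Hoxb4 were at 0, as were Hoxa5, Hoxb5 and Hoxc5. Hoxa5 and Hoxc5 are needed by the motor neurons that drive the diaphragm. Hoxa6, Hoxb6 and Hoxc6 were at 0, and Hoxc6 marks the limb motor neurons of the brachial cord. Hoxa7, Hoxb7, Hoxb8, Hoxc8 and Hoxd8 were at 0 too. Hoxb8 is also known from blood progenitors.

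The posterior genes, with paralog numbers 9 to 13, had 4 reads over 16 genes, with an interval of 1.09 to 10.2. This overlaps the interval of the central genes, 0.0253 to 5.57. Hoxa9, Hoxb9, Hoxc9 and Hoxd9 were at 0, Hoxc9 being the gene that gives thoracic motor neurons their identity. Hoxa10, Hoxc10 and Hoxd10, genes of the lumbar cord, were at 0. So were Hoxa11, Hoxc11 and Hoxd11, which pattern limb and, in part, kidney, and Hoxc12 and Hoxd12. Of paralog number 13, Hoxb13 and Hoxd13 had reads and Hoxa13, a gene of digits and hindgut, and Hoxc13, a gene of hair and nails, had none.

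By cluster, the 11 Hoxa genes on chromosome 6 had 0 reads. The 10 Hoxb genes on chromosome 11 had 3, all of Hoxb13. The 9 Hoxc genes on chromosome 15 had 1, and the 8 listed Hoxd genes on chromosome 2 had 1. The intervals were 0.619 to 8.77 reads for Hoxb and 0.0253 to 5.57 for both Hoxc and Hoxd, and they overlap. Each of the 3 genes with reads stood at an end of its cluster, while Hoxa13, Hoxb1, Hoxc13 and Hoxd1, also at cluster ends, were at 0. This placing was noticed after the values were seen, rests on few reads and was not tested. Hoxb13 and Hoxd13 stand at the end of the high paralog numbers and Hoxc4 at the end of the low ones. Hoxb13 is also parted from Hoxb9, its neighbour in the cluster, by 74.0 kb, the widest gap between neighbouring Hox genes of any cluster.

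Many Hox genes overlap other annotated genes, among them antisense RNAs and one another, and whether the authors' counting dropped or shared such reads was not tested. Of the 38 listed genes, 22 overlapped another annotated gene on either strand, and all 22 were at 0. The other 16 overlapped none, and 13 of them were at 0. The 3 genes with reads were among these 16. Of 101897 windows of 50 bases along Hox transcripts, 89.1% were found in no other gene, and this share was lowest in Hoxd3 with 39.7% and Hoxb3 with 48.6%. Leaving aside genes that overlap the Hox gene itself, 99.9% were found in no other gene. The lowest share of the second kind for a single gene was 98.6%, for Hoxc9, and 31 of the 39 genes shared no window elsewhere.

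Of 23 listed non-Hox genes that lie within the 4 clusters, 20 were at 0. Of these 23, 15 were long non-coding RNA genes, of which 2 were above 0, against 69.4% of the 3089 long non-coding RNA genes of the table. The other genes were the 6 miRNA genes, 1 pseudogene and 1 protein-coding gene. Hotairm1, an antisense long non-coding RNA of the Hoxa cluster, had 0.000986 RPKM from 1 read, in the library of 64.8 M. It overlaps a Hox gene, and without stated strand the reads of both cannot be told apart. Gm53, a long intergenic RNA gene, had 0.00109 RPKM, and Gm11539, a processed pseudogene, had 0.0269 RPKM. Both of them lie in the gap between Hoxb13 and Hoxb9. Each had 3 reads, 1 in the library of 71.6 M, 2 in that of 64.8 M and 0 in that of 51.3 M. Whether these are the same reads, counted for both genes, was not tested. A pseudogene is a copy of another gene, so its reads may be shared with that gene.

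Of 11 long non-coding RNAs listed for the Hox clusters, 10 were matched and 9 were at 0. These were Hotair, Hottip, Hoxa11os, Hoxaas2, Hoxaas3, Hoxb3os, Hoxb5os, Hoxd3os1 and Haglr. Over all long non-coding RNA genes of the table, 69.4% were above 0. Hotair and Hottip are RNAs of the Hoxc and Hoxa clusters that are known for their links to Polycomb and Trithorax complexes.

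The genes outside the clusters had higher values within a few steps. Beyond the low-numbered end of the Hoxa cluster, Skap2, a signalling adaptor, had 0.0146 RPKM (426 estimated reads) and the next gene, Snx10, had 0.601 RPKM. On the Hoxa13 side Evx1, a homeobox gene of cord interneurons, was at 0 and Hibadh, an enzyme of valine breakdown, had 0.191 RPKM. On the Hoxd13 side Evx2 was at 0 and Lnpk, a protein of the endoplasmic reticulum, had 0.779 RPKM. On the Hoxd1 side Mtx2, a mitochondrial membrane protein, had 0.793 RPKM, and Hnrnpa3, an RNA-binding protein, had 36.8 RPKM.

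The Hoxc cluster had well-read genes at both ends. Calcoco1 beyond Hoxc13 had 7.39 RPKM. Beyond Hoxc4 stood Smug1, a DNA repair enzyme, with 5.22 RPKM, Cbx5, which encodes heterochromatin protein HP1 alpha, with 7.38 RPKM, and Hnrnpa1 with 132 RPKM. Around the Hoxb cluster the values were lower at first. Ttll6 beyond Hoxb13 had 0.000368 RPKM from 2 reads, Calcoco2 was at 0, and Skap1 beyond Hoxb1 had 0.00218 RPKM (120 estimated reads). Of the border genes Atf2 lay further out, at 1.39 RPKM. In all, 12 of 15 matched border genes were above 0, against 84.8% of all protein-coding genes.

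**Figure D2:**
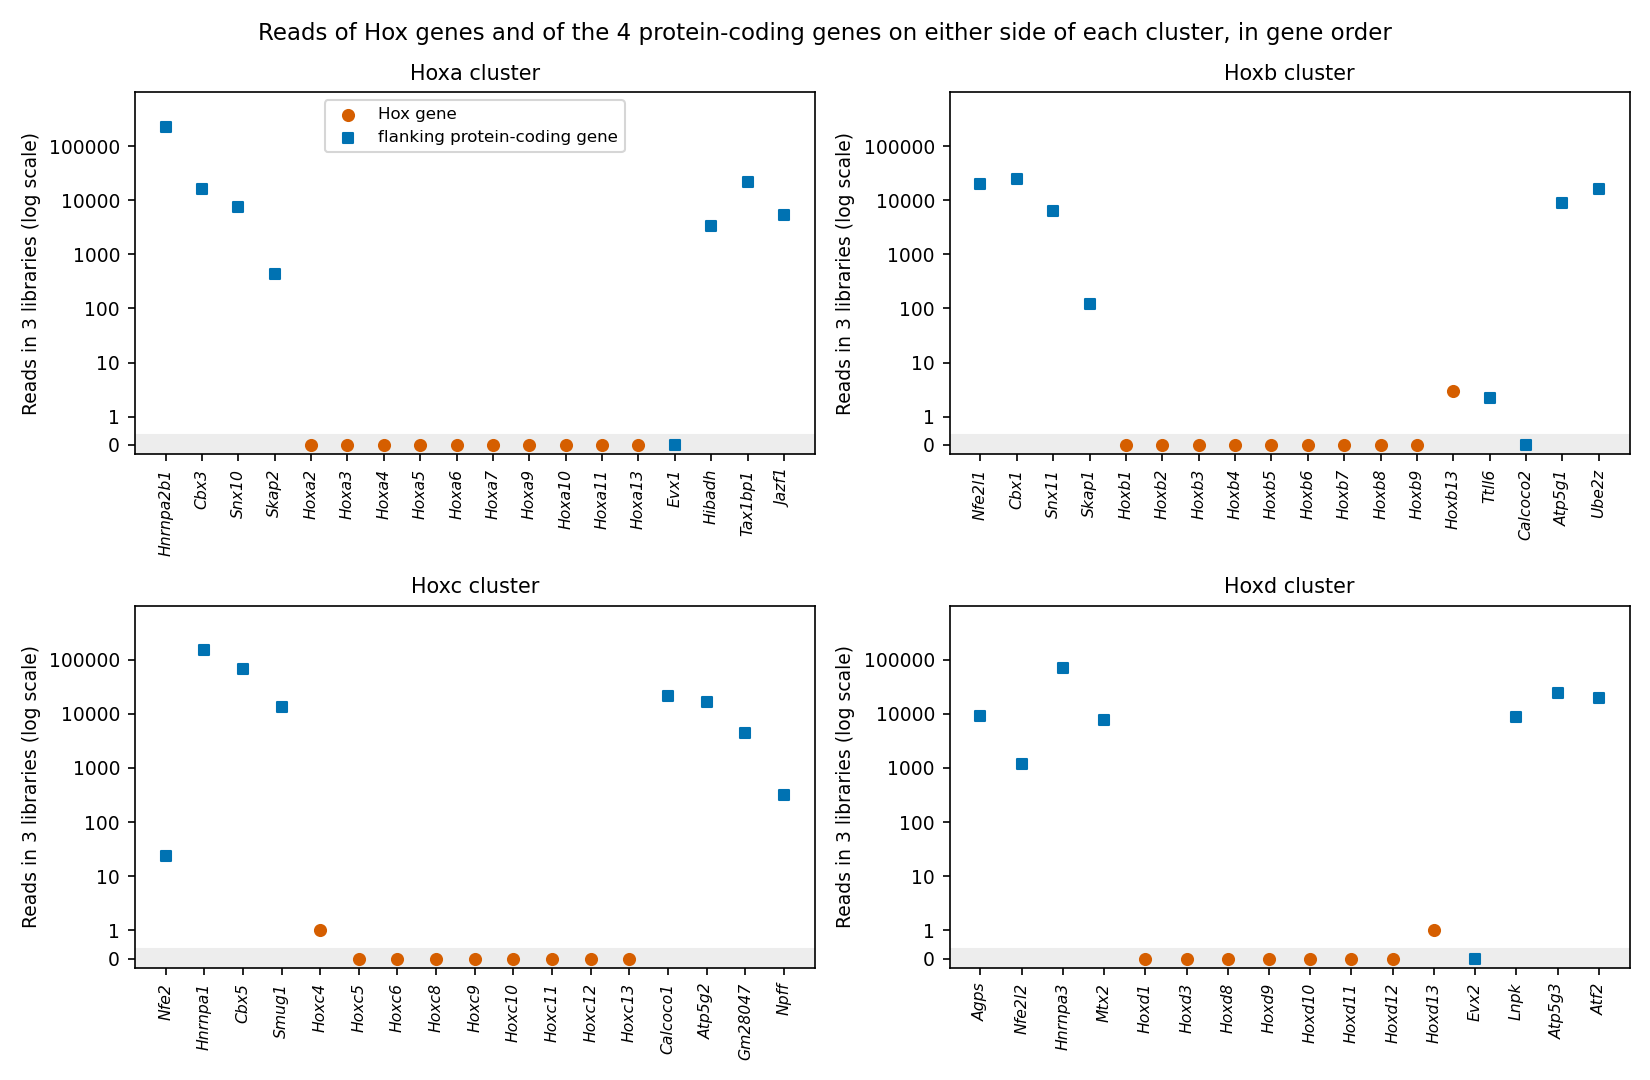
Reads over the 3 libraries (log scale, with 0 drawn in the grey band) for the Hox genes (circles, whole reads) and the 4 protein-coding genes on either side of each cluster (squares, estimated reads), in gene order from low to high paralog number. Hox genes lie between 0 and 3 reads, while Hnrnpa1, 3 genes beyond Hoxc4, has an estimated 154657 reads.

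Long stretches without a read were also found away from the Hox clusters. Along the chromosomes, 13 protein-coding genes in a row, made up of the Hoxa cluster, Evx1 and 1 other gene, were at 0, 11 of them Hox genes. The stretches from Hoxb9 to Hoxb1, from Hoxc13 to Hoxc6 and from Hoxd12 to Hoxd1 held 9, 8 and 7 genes. There were 82 stretches of 8 or more genes in the table, 3 of them mostly of Hox genes and 40 mostly of olfactory, vomeronasal or trace amine receptors. There were 34 stretches longer than that of the Hoxa cluster, and 9 of its length, itself included.

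Those receptor families, chosen after their values were seen, had shares above 0 near that of the Hox genes but more reads. Above 0 were 7.89% of the Hox genes, 8.21% of 853 olfactory receptor genes and 11.5% of 191 vomeronasal receptor genes. The Hox genes had 0.0516 estimated reads per kilobase of exon, against 1.53 in the olfactory and 1.90 in the vomeronasal receptor genes. A single gene held much of either sum, Olfr613 with an estimated 2353 reads and Vmn1r58 with 1770 reads, and without them the values were 0.680 and 0.445 reads per kilobase. No Hox gene had an estimated 4 reads or more, against 79.1% of all protein-coding genes and 49 olfactory receptor genes.

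The Hox promoters held more CpG at the median than those of the other genes at 0. All 24 Hox windows were kept here, although 10 held an annotated exon and only 17 had a start that was also an annotated one. Hox genes listed at 0 had a median of 13 CpG in the 250 bases before the start (21 promoters, 2 to 35). Other protein-coding genes at 0 had a median of 1.0 (2383 promoters), and other protein-coding genes above 0 had a median of 13 (16759 promoters). Of the promoters of Hox genes at 0, 66.7% held 10 CpG or more, against 4.11% of those of other genes at 0 and 60.8% of those of genes above 0. The median share of G and C was 58.0% in the promoters of Hox genes at 0, 42% in those of other genes at 0 and 58.4% in those of genes above 0. At least 1 CpG was found in 94.6% of all other promoters. The difference was not tested, since neighbouring Hox genes are not independent of one another.

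**Figure D3:**
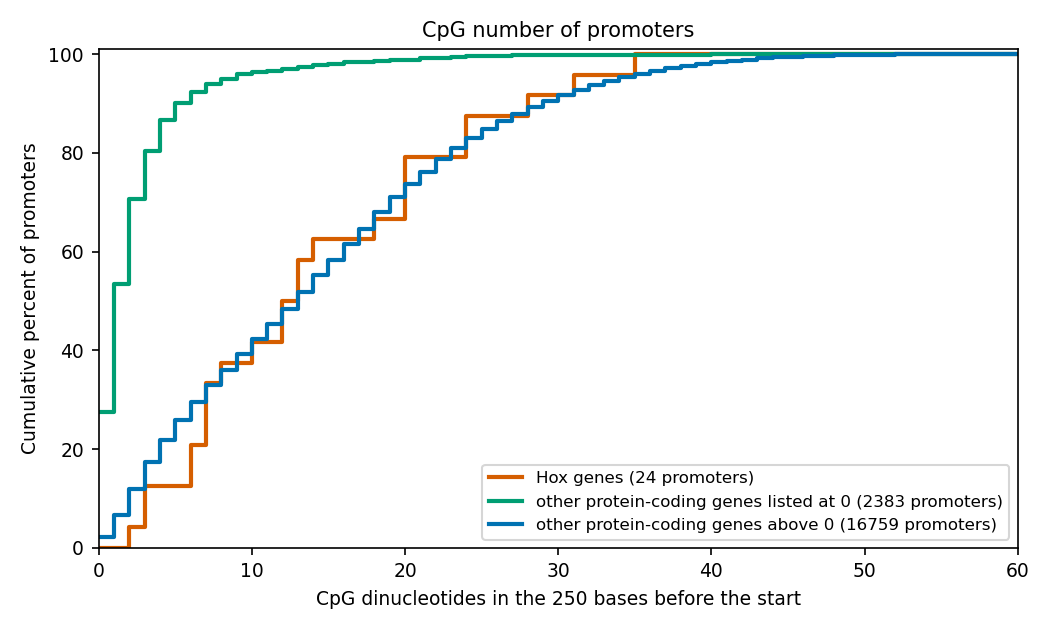
Cumulative percent of promoters (vertical) by their number of CpG dinucleotides in the 250 bases before the RefSeq start (horizontal). The 24 Hox promoters, including that of Hoxd4, follow the curve of 16759 promoters of other genes above 0 and lie to the right of the 2383 promoters of other genes at 0.

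Proteins that work on or with Hox genes had values far above those of the Hox genes. Hox proteins bind DNA together with TALE homeodomain cofactors, and all 9 of these were above 0, with a median of 0.745 RPKM. Over all protein-coding genes, 84.8% were above 0 and the median was 0.214 RPKM. Meis2, Meis3 and Meis1 had 1.47, 4.94 and 0.0431 RPKM. Pbx2, Pbx3 and Pbx4 had 6.45, 0.0921 and 0.188 RPKM. Pknox1 had 0.745 and Pknox2 0.101 RPKM. The lowest of the 9 by reads, Meis1, still had an estimated 1126 reads, against 5 for all Hox genes together. TALE proteins also act with partners other than Hox.

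Polycomb genes, whose products keep Hox clusters silent, were all above 0, 20 of 20, and 14 reached 1 RPKM. The highest were Bmi1, Pcgf2 and Phc1, subunits of Polycomb repressive complex 1, at 13.9, 8.55 and 6.82 RPKM, and the median was 1.88 RPKM. Trithorax-group and related genes, whose products keep Hox genes active, were above 0 in 10 of 10 and at 1 RPKM in 8. For both lists, the shares over all protein-coding genes were 84.8% above 0 and 31.6% at 1 RPKM or more. Men1, a subunit of methyltransferase complexes, had 12.2 RPKM, Psip1, a chromatin reader, had 8.82 RPKM and Kdm6b, a demethylase of the Polycomb mark, had 8.40 RPKM. Both kinds of factor were measured in the tissue in which 35 of 38 Hox genes were at 0.

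The list of caudal and retinoic acid inputs holds signals that turn Hox genes on in the early trunk, their receptors and the enzymes that make or clear retinoic acid. Of its 16 genes, 13 were above 0, against 84.8% of protein-coding genes, and 1 reached 1 RPKM. The median was 0.00338 RPKM, against 0.214 RPKM over all protein-coding genes. Gdf11, a secreted factor that times the switch to posterior Hox genes, had 1.91 RPKM, Cyp26b1, an enzyme that clears retinoic acid, had 0.429 RPKM and the retinoic acid receptor Rarg had 0.390 RPKM. The 3 members at 0 were the caudal homeobox genes Cdx1 and Cdx2 and the growth factor gene Fgf8, named after their values were seen.

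Of 13 homeobox genes of the ParaHox and related families, the closest kin of Hox, 6 were above 0 and none reached 1 RPKM. Over all protein-coding genes these shares were 84.8% and 31.6%. Gsx1, a gene of the ventral forebrain, had 0.111 RPKM from 13, 24 and 10 reads in the libraries of 71.6, 64.8 and 51.3 M. Meox1, a gene of the somites, had 0.0204 RPKM from 24, 15 and 24 reads. Gbx2, of the anterior hindbrain, had 0.00717 RPKM. Gsx1 and Meox1 had reads in each library, which no Hox gene had.

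The label of the tissue was checked with 6 cortical markers, all at 1 RPKM or more, with a median of 19.9 RPKM and Neurod6, of cortical projection neurons, at 194 RPKM. Forebrain transcription factors were above 0 in 10 of 10 and at 1 RPKM in 8. The lowest of the 10, Six3, had 0.000283 RPKM, an estimated 0.832 reads. Fezf2 and Tbr1, of deep-layer projection neurons, had 27.0 and 24.4 RPKM. Hindbrain and spinal cord factors other than Hox were above 0 in 16 of 20, with a median of 0.00354 RPKM. Over all protein-coding genes, 84.8% were above 0 and 31.6% at 1 RPKM or more, and the median was 0.214 RPKM. Olig3 had 0.116 RPKM and Egr2, of hindbrain segments, had 0.0244 RPKM. Olig3 had 5, 25 and 13 reads and Egr2 had 8, 12 and 10 reads in the libraries of 71.6, 64.8 and 51.3 M. Egr2 is also a gene of neuronal activity and Schwann cells.

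Markers of other cells that could be in the tissue, some of which express Hox genes elsewhere in the body, ranged widely. Their counts above 0 stand beside 84.8% of all protein-coding genes, and their medians beside 0.214 RPKM. Motor neuron markers were above 0 in 4 of 5, with Slc5a7 highest at 0.0166 RPKM. Limb and trunk mesenchyme markers were above 0 in 5 of 6, with a median of 0.00227 RPKM and Prrx1, which is also a gene of other mesenchyme, highest at 0.0841 RPKM (1083 estimated reads). Skeletal muscle markers were above 0 in 5 of 5, with a median of 0.00862 RPKM and Acta1, a muscle actin, highest at 0.298 RPKM. Cartilage markers were above 0 in 4 of 4, with a median of 0.00342 RPKM and the collagen gene Col2a1 highest at 0.643 RPKM (3514 estimated reads). The other cartilage markers, Acan, Matn1 and Comp, had only an estimated 50.6, 5.15 and 3.93 reads.

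Cells of the blood and vessels had higher values. The share above 0 over all protein-coding genes was again 84.8%, and their median 0.214 RPKM. Blood markers were above 0 in 6 of 6, with a median of 0.145 RPKM and the globin genes Hba-a1 and Hbb-bs at 53.6 and 52.6 RPKM. Microglia markers were above 0 in 6 of 6, with a median of 0.466 RPKM and the complement gene C1qc highest at 1.03 RPKM. With exon length in place of span, Cx3cr1 was highest at 10.2 RPKM, against 1.74 RPKM for C1qc. Endothelial markers were above 0 in 5 of 5, with a median of 0.280 RPKM and Cldn5, of tight junctions, highest at 17.3 RPKM. Meningeal markers were above 0 in 6 of 6, with a median of 0.0457 RPKM and Foxc1 highest at 0.436 RPKM. Whether any of these cells gave the 5 Hox reads was not tested.

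**Figure D4:**
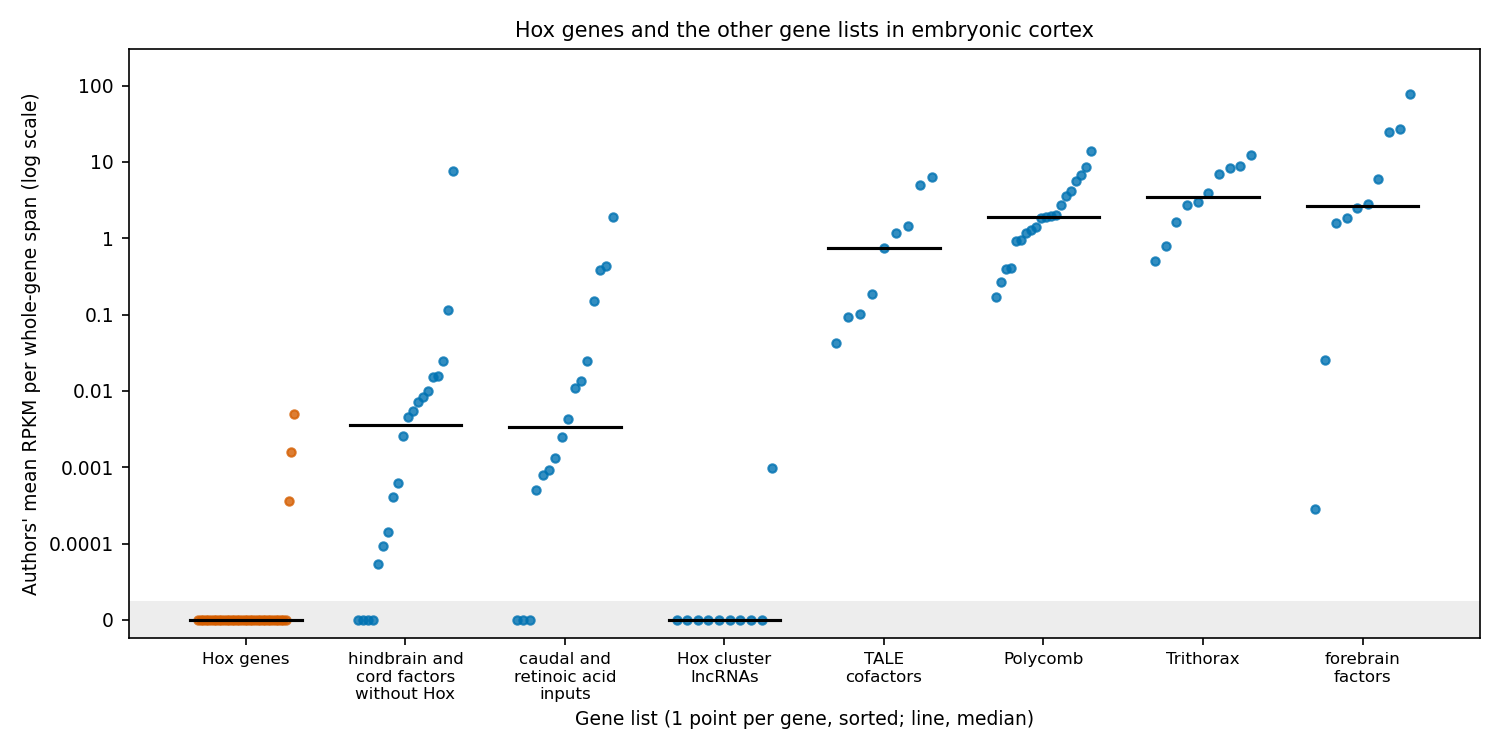
Authors' mean RPKM per gene (log scale, with 0 drawn in the grey band) for the 38 listed Hox genes and 7 other gene lists, 1 point per gene with the median as a line. Hox genes end at 0.00505 RPKM, while the median of the TALE cofactors is 0.745, that of Polycomb genes 1.88 and that of forebrain factors 2.65 RPKM.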

How the data were processed

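Per the labels' protocols, RNA was taken up in Trizol, cleaned on RNeasy columns, and sequenced from TruSeq libraries. The authors deposited 1 column of RPKM, a mean that the labels tie to 3 embryonic cortex libraries. The other 50 samples were not used. HTSeq 0.6.0, DESeq 1.16.0, Cuffdiff 2.0.2, Bowtie2 2.1.0 and TopHat2 2.0.9 appear in the submitters' processing notes, with the build mm9 (NCBIM37). Which of them made the values, the read length and the treatment of strand are not given in the sources used here. The labels do not say if each library is a separate animal.

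Gene IDs were matched to GENCODE M21, which is on a later build (32919 of 37991 matched). The 3 library totals were first set from the most frequent low values of RPKM times span (end minus start), taken as single reads. With these totals, RPKM times span gave exact whole reads in 57.4% of 7443 multi-exon genes with fewer than 2000 reads. With exon length this held for 1 gene. A value was counted as whole within 1.8e-10 reads or less. The reads of Hoxc4 came out whole with a length of 17907 bases, against 17918 in M21. Other reads were estimated as RPKM times span times summed depth, and differ slightly from whole reads because the mean weights libraries equally. By rule, all Hox genes are named, with the 3 highest members of the other lists, or all members for cofactors, border genes and cluster RNAs, except that a few are not reported here. Members and lists were chosen with earlier results of these data known. No test between groups was possible, and the promoter, shared-sequence and family comparisons were added after seeing the data. Python 3.11.15, numpy 2.4.6, pandas 2.3.3 and scipy 1.17.1 were used.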

Additional observations from a re-analysis of the deposited data

How the results depend on the processing

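The 3 Hox genes above 0 became 0 genes where 4 or more estimated reads were asked for, and 0 genes at 0.01 RPKM or more. They stayed 3 without genes that overlap another gene, by construction, since none of the 3 overlaps one. The median of 0 RPKM became 0.00156 RPKM over the 3 members above 0, by the construction of that summary. No Hox gene passed 1 RPKM, 0.1 RPKM or 1 RPKM per kilobase of exon. The summed estimate of 5.15 reads lay between 4.23 and 5.90 with the depth taken from the smallest or the largest library, and was 2.19 without Hoxb13. Without its gene with the most reads, each of the Hoxb, Hoxc and Hoxd clusters had 0 reads, as did the class of paralogs 4 to 8. This too was by construction, since each of them had only 1 gene with reads. The class of paralogs 9 to 13 had an estimated 0.965 reads without its gene with the most reads. The mean of log2(RPKM + 0.1) over all Hox genes was -3.32, and it was 0.00026 and -6.62 with pseudocounts of 1 and 0.01. A tolerance of 1% in place of 0.5% gave the same whole reads for the 3 genes above 0. No paired analysis was possible because the group stands alone and its decoded libraries carry no replicate number. Leaving out each library in turn was added after seeing the data. The whole reads over all Hox genes were then 3 to 4, against 5, and 2 to 3 genes had a read, with Hoxd13 lost without the library of 64.8 M and Hoxc4 without that of 51.3 M. Hoxb had 1 to 3 reads, with 1 left without the library of 71.6 M, Hoxc and Hoxd had 0 to 1, paralogs 4 to 8 had 0 to 1, and paralogs 9 to 13 had 2 to 3, with 2 left without the library of 71.6 M. With 5 reads in all, no order among clusters, paralogs or libraries is detectable at this depth.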
